A study of Mus musculus with 20 samples.

Results

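The alcohol dehydrogenases, aldehyde dehydrogenases and aldo-keto reductases are enzymes that convert alcohols, aldehydes, ketones and sugars into each other. Their genes were taken by name from the array annotation, as every gene name that starts with Adh, Aldh or Akr and a digit. This gave 40 genes of the 27827 gene names on the array, measured by 58 of its 41174 probes. They were 6 Adh, 20 Aldh and 14 Akr genes, of which 24 had 1 probe and 16 had more than 1.

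The study set out to compare the kidney transcriptome in ischemia and reperfusion injury with that after maneuvers known to protect the organ. Total kidney RNA of male C57BL/6 mice, 8 to 12 weeks old, was measured on 20 one-colour Agilent whole mouse genome arrays, with 4 in each of 5 groups. Control mice had neither surgery nor treatment, so no sham operation is part of the comparison. IRI mice had both renal pedicles clamped for 45 min under ketamine and xylazine and were killed after 6 h of reperfusion. IRI+Hemin mice were given hemin, a heme compound that induces heme oxygenase 1, at 25 mg/kg 24 h before the same surgery, and Hemin mice were given hemin without surgery. IPC+IRI mice had both pedicles clamped for 15 min, 7 days before the same injury (ischemic preconditioning), and no group of preconditioned mice without the later injury is among the samples. All 5 groups share the wild-type strain and carry no transgene. The labels number 4 replicates in a group and do not say whether each is a single mouse, so p-values measure the spread between these samples.

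Alcohol dehydrogenases oxidise an alcohol to an aldehyde, and aldehyde dehydrogenases carry the aldehyde on to an acid, which is also how retinol becomes retinoic acid. Aldo-keto reductases run the other way and reduce aldehydes, ketones, sugars and steroids with NADPH. The proximal tubule of the kidney is rich in these enzymes, and they also clear the reactive aldehydes that form when membrane lipids are peroxidised, as happens when blood flow returns to an ischemic organ. All levels below are log2 values of the processed signal over the 75th percentile of the same array, so that 1 unit is a 2-fold difference and a negative level lies below the 75th percentile of that array. Called means that the adjusted p of the limma fit was below 0.05.

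The arrays had 75th percentiles of 147 to 358 intensity units, and 57.4% to 67.4% of genes were well above background, with 4 arrays a group limiting the precision. The 4 arrays of each group shared a slide that held no other group, and the effect of the slide cannot be told apart from that of the group in any comparison. The Control and IRI slides were scanned on the same day and every other comparison reported here spans scan days. Markers of the proximal tubule, 12 genes in all, were well represented, with a summed linear level between 627 and 1213 times the 75th percentile over the 20 arrays and overlapping ranges in all groups. This sum is led by Kap, Miox and Slc34a1, and single markers moved. In IRI vs Control 2 of the 12 were called (16.7% against 50.6% of all genes), both lower, Lrp2 at -0.95 and Cubn at -0.54. In IPC+IRI vs IRI 5 were called (41.7% against 43.7%), 2 higher and 3 lower. In IRI+Hemin vs Hemin 7 were called, all lower (58.3% against 44.2% of all genes), with a median of -0.47. The part of this shift in the members' values was not tested. The summed level of 5 leukocyte markers was 0.416 to 0.548 in Control and 0.400 to 0.625 in Hemin, against 1.51 to 2.71 in IRI, 0.869 to 2.45 in IRI+Hemin and 1.01 to 3.28 in IPC+IRI. Of the 4 tested in IRI vs Control, Cd68 and S100a8 were called higher, while the general leukocyte marker Ptprc (means of -2.87 in Control and -2.86 in IRI) and the T cell marker Cd3e (-3.34 and -3.85) were not called. Other markers also moved between injured groups. In IPC+IRI vs IRI all 3 red cell markers were called lower, by -1.71 to -1.60. Of 4 endothelial markers 2 were called (50% against 43.7% of all genes), Cdh5 (-1.54) and Pecam1 (-1.16), both lower. Kdr (means of -0.12 in IRI and 0.15 in IPC+IRI) and Emcn (3.25 and 3.43) went the other way and were not called. In IRI+Hemin vs IRI 2 of 5 markers of the thick limb and distal tubule were called (40% against 44% of all genes). These were Pvalb (-1.67) and Calb1 (-0.81), both lower, while Umod (means of 7.57 in IRI and 7.89 in IRI+Hemin) was not called. The endothelial Cdh5 (-1.30) was called lower there, and the endothelial Kdr (0.73) and Emcn (0.72) were called higher. Of 4 collecting duct, 4 podocyte and 2 fat markers tested in IRI vs Control, 3, 2 and 0 were called (75%, 50% and 0% against 50.6% of all genes). Of 4 endothelial markers 2 were called in that comparison (50%), 1 higher and 1 lower, and of 4 liver markers 1 (25%), which was higher. The part of these cells in the members' values was not tested. Whole kidney was measured, so fewer cells of a type and less RNA per cell cannot be told apart.

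Of the 40 genes, 32 were well above background on all 20 arrays and 36 could be tested in at least 1 comparison. The 4 that were too dim were Adh4, Adh7, the pseudogene Adh6-ps1 and Aldh3a1, an aldehyde dehydrogenase of cornea and stomach. Adh7, an alcohol dehydrogenase of epithelia that oxidises retinol, and Adh6-ps1 were well above background on none of the arrays. Of the 20 arrays, 2 had Aldh3a1 well above background, both of them IRI, and its group means were -5.23 ± 1.34 (SD, n = 4) in IRI and -6.53 ± 0.17 in Control. Adh4 was well above background on 0 to 2 arrays of each group.

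In IRI vs Control, 12 of 36 members were called, a share of 33.3% against 50.6% of all genes tested. Of these, 8 were higher and 4 lower, where 17% of all genes were called higher and 33.7% lower. Injury after preconditioning, IPC+IRI vs Control, called 16 of 36 members, or 44.4% against 55.8% of all genes, with 8 higher (23.2% of all genes) and 8 lower (32.6%). Hemin without injury called 13 of 35 members against Control, or 37.1% beside 35.9% of all genes, with 7 higher (18.4% of all genes) and 6 lower (17.5%). This split moved with the scaling: it was 21 higher and 2 lower without normalization between arrays, 3 higher and 7 lower with the 75th percentile taken over probes well above background on all arrays, and 8 higher and 2 lower with normexp. With 1 array left out the count ranged from 5 without Control 3 to 16 without Control 2, and was 6 to 8 without Control 1, Control 4, Hemin 1, Hemin 3 or Hemin 4. Within hemin-treated mice, IRI+Hemin vs Hemin called 17 of 36 members, or 47.2% against 44.2%, with 7 higher (16.4% of all genes) and 10 lower (27.8%), and 10, 10 and 11 members without IRI+Hemin 1, Hemin 2 or Hemin 4.

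The groups that combine injury with hemin or preconditioning, named the protected groups here, were also set against IRI. IPC+IRI vs IRI called 12 of 36 members, or 33.3% against 43.7% of all genes, with 3 higher (26% of all genes) and 9 lower (17.7%). IRI+Hemin vs IRI called 12 of 36, or 33.3% against 44%, with 5 higher (26.1% of all genes) and 7 lower (18%). Without normalization between arrays the splits of higher and lower members became 8 and 1 in IRI vs Control, 13 and 1 in IPC+IRI vs Control, 11 and 3 in IPC+IRI vs IRI, 8 and 4 in IRI+Hemin vs IRI, and 6 and 5 in IRI+Hemin vs Hemin. Differences of at least 2-fold were fewer. Called at this size were 7 members in IRI vs Control (20.2% of all genes), 6 in IPC+IRI vs Control (22.1%), 6 in IPC+IRI vs IRI (11.6%), 6 in IRI+Hemin vs IRI (12.5%), 3 in Hemin vs Control (8.16%) and 8 in IRI+Hemin vs Hemin (14.3%).

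The median log2 difference of the members was 0.05 in IRI vs Control, where that of all genes tested was -0.17, and -0.32 in IRI+Hemin vs Hemin, where that of all genes was -0.15. Comparisons that name the same group share its 4 arrays, while IRI vs Control and IRI+Hemin vs Hemin have none in common. In the test of the difference between these 2 injury effects, 1 of 36 members was called (2.78%), Adh6a, whose signal was near background in both uninjured groups. Of all genes 7.77% were called and 1.95% were called lower. At an unadjusted p below 0.05 in limma there were 7 members, and the share of all genes at that threshold is not given here.

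**Figure D1:**
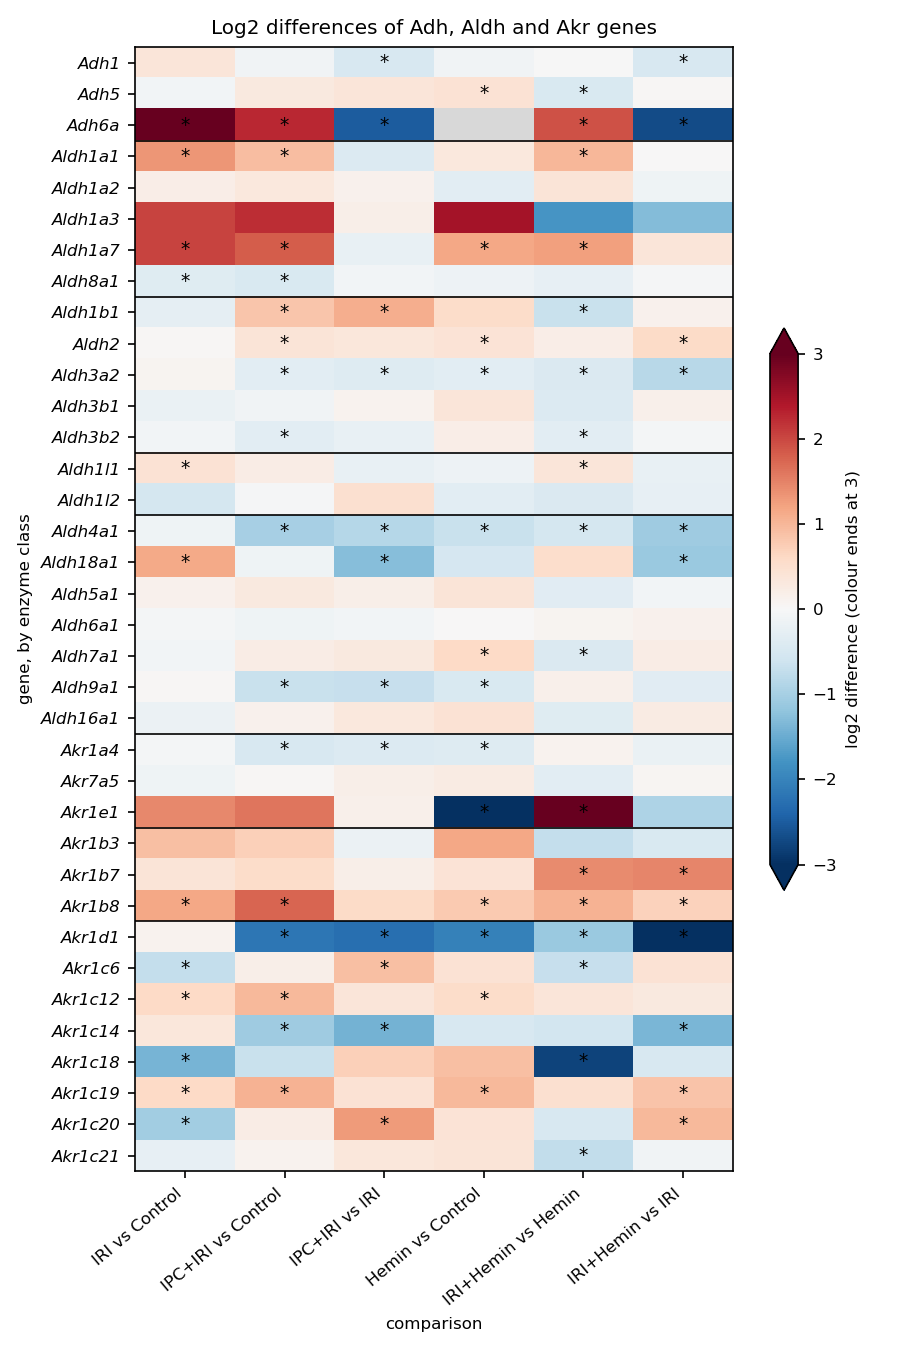
Log2 difference of each of the 36 testable genes (rows, in blocks by enzyme class) in the 6 comparisons (columns), with red for higher and blue for lower in the group named first and colours that end at 3. An asterisk marks a called difference, and grey marks Adh6a in Hemin vs Control, which was not tested because the gene was near background in both groups. The strongest colours lie on single genes of each class, such as Adh6a and Akr1d1, and no class is of 1 colour throughout.

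Promoters of 3 genes whose levels are described next are shown first, for their sequence alone, since no measurement here ties a promoter to a change. They come from RefSeq on build GRCm38.p6, each from 250 bases before to 50 bases after a transcript start and read on the gene's own strand. Of the 40 genes, 31 were matched to a promoter, with 34 entries. In the promoter of Adh6a (chr3:138313036-138313335, + strand), the capitals mark the core of an antioxidant response element (TGACNNNGC) and a TATA box (TATAAA), both searched for on both strands.

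Adh6a: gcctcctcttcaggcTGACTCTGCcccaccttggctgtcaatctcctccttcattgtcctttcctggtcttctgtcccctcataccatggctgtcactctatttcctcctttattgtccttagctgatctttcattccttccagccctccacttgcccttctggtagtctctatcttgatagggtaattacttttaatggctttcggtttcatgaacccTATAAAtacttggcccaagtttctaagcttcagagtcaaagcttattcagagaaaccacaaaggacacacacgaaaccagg

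The antioxidant response element core, to which the oxidative stress factor NRF2 binds in its target genes, starts at position -235 from the transcript start, and the TATA box at position -31. The core was found in 12.4% of all 32851 promoters and in 4 of the 34 promoter entries of the members, and the TATA box in 13.6% and in 6 of 34. A match of letters is not a bound site.

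Aldh1a1 and Aldh1a7 lie near each other on chromosome 19 on opposite strands, Aldh1a1 at chr19:20601718-20602017 (+ strand) and Aldh1a7 at chr19:20727507-20727806 (- strand). Of the 2 entries for Aldh1a1 the one nearer in sequence to Aldh1a7 is shown. The capitals mark the bases that differ between the genes within the last 150 bases.

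Aldh1a1: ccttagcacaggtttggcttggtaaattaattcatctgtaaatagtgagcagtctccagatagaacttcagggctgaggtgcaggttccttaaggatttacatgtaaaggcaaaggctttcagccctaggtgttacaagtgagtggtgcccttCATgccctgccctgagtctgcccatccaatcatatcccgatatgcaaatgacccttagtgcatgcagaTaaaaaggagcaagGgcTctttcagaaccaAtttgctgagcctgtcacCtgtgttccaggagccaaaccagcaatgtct

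Aldh1a7: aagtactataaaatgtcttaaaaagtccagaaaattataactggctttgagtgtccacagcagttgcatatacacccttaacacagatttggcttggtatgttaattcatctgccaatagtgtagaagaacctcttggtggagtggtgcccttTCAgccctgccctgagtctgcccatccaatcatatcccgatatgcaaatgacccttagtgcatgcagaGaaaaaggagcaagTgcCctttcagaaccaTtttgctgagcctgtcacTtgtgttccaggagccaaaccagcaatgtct

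Over these 150 bases, 142 were identical and 8 differed. The next most similar pair of members, Aldh9a1 and Adh5, had 60 identical bases, and the median over 558 pairs compared without gaps was 38. Both promoters hold a CCAAT box (CCAAT) at position -72, a motif found in 37.4% of all promoters, and neither held the antioxidant response element core within this window.

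Among the alcohol dehydrogenases, Adh6a was the one called with at least 2-fold. Its levels were -5.89, -5.75, -6.26 and -6.01 on the Control arrays, where none was well above background, and -1.95, -0.87, -1.00 and -1.05 on the IRI arrays, where all were. The IRI+Hemin arrays gave -4.03, -3.50, -3.58 and -4.46, the IPC+IRI arrays -4.65, -3.24, -3.61 and -3.37, and the Hemin arrays -5.93, -5.80, -6.05 and -5.40, with 1 of these 4 well above background. Injured kidneys thus stood above uninjured ones on every array, and both protected groups lay between Control and IRI without overlap. Because the control signal is only a bound, Adh6a was at least 11.2-fold higher in IRI than in Control (adjusted p = 3.16e-09) and at least 1.97-fold higher in IPC+IRI than in Control (adjusted p = 7.66e-06). Such a bound sets the bright group's mean against the lowest signal that is well above background. Adh6a was lower in both protected groups than in IRI, with a log2 difference of -2.50 ± 0.29 (SE) in IPC+IRI (adjusted p = 1.16e-05) and of -2.67 ± 0.29 in IRI+Hemin (adjusted p = 5.14e-06). Its signal was higher in IRI+Hemin than in Hemin (adjusted p = 7.40e-05), where the fitted log2 difference of 1.90 ± 0.29 has no exact size, since only 1 Hemin array was well above background. The interaction of hemin and injury was called (adjusted p = 0.000481) at a fitted -2.86 ± 0.42 on the log2 scale. Both of its uninjured groups were near background, so this value does not measure by how much the injury effect differed. No alternative ended these calls except normexp, which ended that of IPC+IRI vs Control and left a log2 difference of 0.14, and normexp lowered the difference between IRI and Control to 1.46. The other differences also shrank, at the least to -1.31 in IPC+IRI vs IRI and -1.42 in IRI+Hemin vs IRI. In IRI+Hemin vs Hemin the smallest value was 0.38, and in the interaction -1.07. The signal came from 1 of 2 probes. The probe for transcript NM_026945 (mm9 chr3:137990401-137990460) had group means of -5.58 in Control and -5.15 in Hemin, -0.24 in IRI, and -2.79 and -2.97 in IPC+IRI and IRI+Hemin, while the probe for AK028114, further along the chromosome, stayed between -7.34 and -6.51.

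The other measured alcohol dehydrogenases had differences below 1 log2 unit. Adh1, the class I enzyme that oxidises ethanol and retinol, had means of 4.92 ± 0.18 in Control and 5.28 ± 0.16 in IRI (n = 4 each), and was lower in both protected groups than in IRI, by log2 differences of -0.47 ± 0.15 (adjusted p = 0.0205) and -0.49 ± 0.15 (adjusted p = 0.0164) in IPC+IRI and IRI+Hemin. Both calls were lost with normexp, without normalization between arrays, with the mean of log2 values over probes, in the deposited log2 matrix and without IRI 2, the first also without IPC+IRI 1 and the second with only the arrays compared and without IRI+Hemin 2, and in the deposited log2 matrix the second difference was 0.21. Adh5, the class III enzyme that removes formaldehyde and S-nitrosoglutathione, was higher in Hemin than in Control by 0.43 ± 0.15 (adjusted p = 0.0302) and lower in IRI+Hemin than in Hemin, at -0.47 ± 0.15 (adjusted p = 0.0167). The first Adh5 call was lost with quantile normalization, with the 75th percentile over probes well above background on all arrays and when any of 6 single arrays was left out, Control 1, 3 or 4 or Hemin 1, 3 or 4, and the second without IRI+Hemin 1 or 3.

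**Figure D2:**
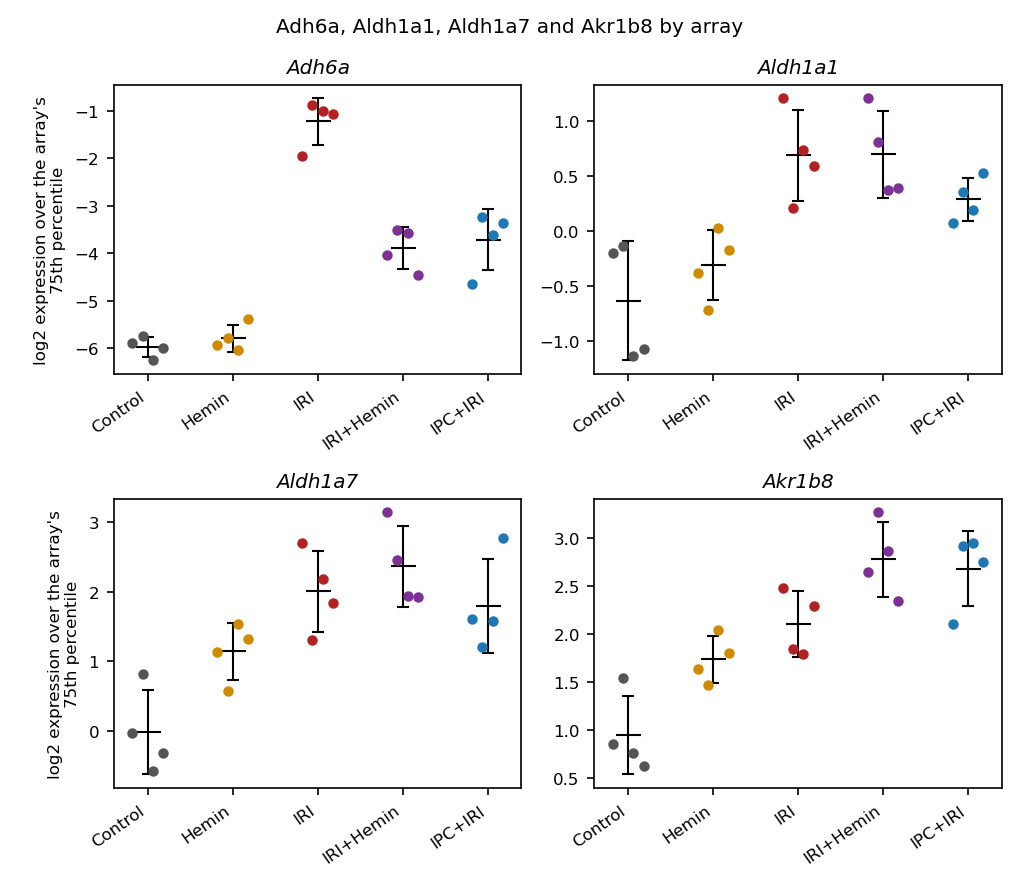
Log2 expression over the array's 75th percentile (vertical axes) of Adh6a, Aldh1a1, Aldh1a7 and Akr1b8 in the 5 groups (horizontal axes), with a point for each of 4 arrays and the mean and SD as bars. Adh6a is near -6 in both uninjured groups and highest in IRI, Aldh1a1 and Aldh1a7 are higher in the 3 injured groups than in Control, and Akr1b8 is highest in IRI+Hemin and IPC+IRI.

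Retinaldehyde dehydrogenases make retinoic acid. Aldh1a7 is grouped with them here as a paralog of Aldh1a1, and whether it acts on retinaldehyde was not tested. Aldh1a1 and its rodent paralog Aldh1a7, the pair with the shared promoter sequence, both rose with injury. Aldh1a7 read -0.03, 0.82, -0.57 and -0.31 in Control, 1.14, 0.58, 1.54 and 1.32 in Hemin, and 2.70, 1.32, 2.19 and 1.83 in IRI. It read 3.15, 2.46, 1.94 and 1.92 in IRI+Hemin and 1.61, 1.21, 1.58 and 2.77 in IPC+IRI. All 12 arrays of injured kidneys were above all 4 Control arrays, while Hemin overlapped with Control. The rise was 2.03 ± 0.38 in IRI vs Control (SE; adjusted p = 0.00028), 1.81 ± 0.38 in IPC+IRI vs Control (adjusted p = 0.000637) and 1.22 ± 0.38 in IRI+Hemin vs Hemin (adjusted p = 0.0152). Hemin alone gave a rise of 1.17 ± 0.38 (adjusted p = 0.0238). The last call was lost without Control 3, Control 4, Hemin 3 or Hemin 4 and with the arrays high in uroplakins, described below, left out, and that of IRI+Hemin vs Hemin without IRI+Hemin 1 or Hemin 2. The protected groups were not called against IRI, with differences of -0.22 ± 0.38 in IPC+IRI and 0.36 ± 0.38 in IRI+Hemin.

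Aldh1a1 followed with smaller steps. It read -0.19, -0.13, -1.13 and -1.07 in Control and 1.21, 0.21, 0.74 and 0.60 in IRI. It stood at 1.21, 0.81, 0.38 and 0.40 in IRI+Hemin, at 0.07, 0.36, 0.19 and 0.52 in IPC+IRI, and at -0.38, -0.72, 0.03 and -0.17 in Hemin. For Aldh1a1 every injured kidney lay above every uninjured one. The rise was 1.32 ± 0.26 in IRI vs Control (adjusted p = 0.000445), 0.92 ± 0.26 in IPC+IRI vs Control (adjusted p = 0.00615) and 1.01 ± 0.26 in IRI+Hemin vs Hemin (adjusted p = 0.00487), and no alternative ended these 3 calls. Hemin alone gave 0.32 ± 0.26 (adjusted p = 0.349). Each gene has 1 probe, at mm9 chr19:20717764-20717823 for Aldh1a1 and chr19:20767553-20767612 for Aldh1a7, and no pair of probes of different members shared more than 32 of 60 bases at its best ungapped match. Whether either probe also binds the transcript of the paralog was not tested.

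Aldh1a2, the retinaldehyde dehydrogenase known from the embryo, had group means of -1.78 to -1.14 and no call. Aldh8a1, a cytosolic enzyme of liver and kidney, fell slightly from 4.61 ± 0.14 in Control to 4.24 ± 0.14 in IRI and 4.15 ± 0.25 in IPC+IRI (n = 4 each), with log2 differences of -0.37 (adjusted p = 0.0361) and -0.46 (adjusted p = 0.0102). The first of these was lost in 9 of 20 alternatives, among them the arrays Control 2, Control 4, IRI 1 and IRI 4 left out singly, and the second in 3 of 20. Other genes of retinoid handling, a list of 23 that holds the binding proteins, retinol dehydrogenases, receptors and the retinoic acid degrading Cyp26 enzymes, were called in 9 of 18 testable cases in IRI vs Control (50% against 50.6% of all genes), all 9 of them lower. The largest falls were those of Lrat, which stores retinol as ester (-2.26 ± 0.18), Stra6, the retinol uptake receptor (-2.17 ± 0.37), and the receptor Rarg (-1.44 ± 0.20). In IRI+Hemin vs IRI 7 of 18 were called (38.9% against 44% of all genes), 5 higher and 2 lower, with Lrat at 1.75 and Stra6 at 1.26. The median of the list in IRI vs Control was -0.40, against -0.17 over all genes. Over the 5 tested Aldh genes of this class, Aldh1a7 among them, it was 1.32, with 3 called, 2 higher and 1 lower.

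Aldh1a3 is singled out here after its values were seen, since it was not called in any comparison although its means were 2 or more log2 units apart. It read -4.83, -4.21, -5.11 and -4.78 in Control, -2.30, -3.99, -3.82 and -0.67 in IRI, and -3.70, -4.60, -3.27 and -4.45 in IRI+Hemin. It read -4.78, 1.15, -3.89 and -2.57 in IPC+IRI and -2.28, -4.79, 0.85 and -2.71 in Hemin. Single arrays of IPC+IRI and Hemin thus stood more than 5 log2 units above the lowest of the same group. Akr1b3, aldose reductase and the first enzyme of the polyol pathway, was highest on the same arrays, at 4.49 on IPC+IRI 2 (against 1.64 to 1.95 on the other 3), 4.62 on Hemin 3 (against 1.82 to 3.03) and 3.57 on IRI 4 (against 2.01 to 2.68), and was not called in any comparison either. Control and IRI+Hemin were even, at 1.46 to 2.08 and 2.05 to 2.35. Genes of the urothelium, the lining of the renal pelvis, also varied between arrays. The summed linear level of the 5 uroplakin genes, a list added after values were seen, was 2.63 on IPC+IRI 2 against 0.208 to 0.281 on the other 3, 1.96 on Hemin 3 and 1.70 on Hemin 1 against 0.616 and 0.851, and 2.57 on IRI 4 and 2.84 on IRI 1 against 0.580 and 0.231. The sum did not follow the 2 genes on every array. On Control 2 it was 2.91, with Aldh1a3 at -4.21 and Akr1b3 at 2.08, and on IRI+Hemin 4 it was 1.54, with Aldh1a3 at -4.45 and Akr1b3 at 2.35. It was 1.04 on Control 1, and 0.386 to 0.736 on the other arrays of these 2 groups. The part of the urothelium in these values was not tested. In the list of 11 polyol and osmolyte genes, 4 were called in IRI vs Control (36.4% against 50.6% of all genes), 2 in each direction, with Hk2, the inducible hexokinase, at 3.09 ± 0.77, the osmotic factor Nfat5 at 0.36 ± 0.11 and Isyna1, which makes inositol phosphate, at -0.37 ± 0.13.

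**Figure D3:**
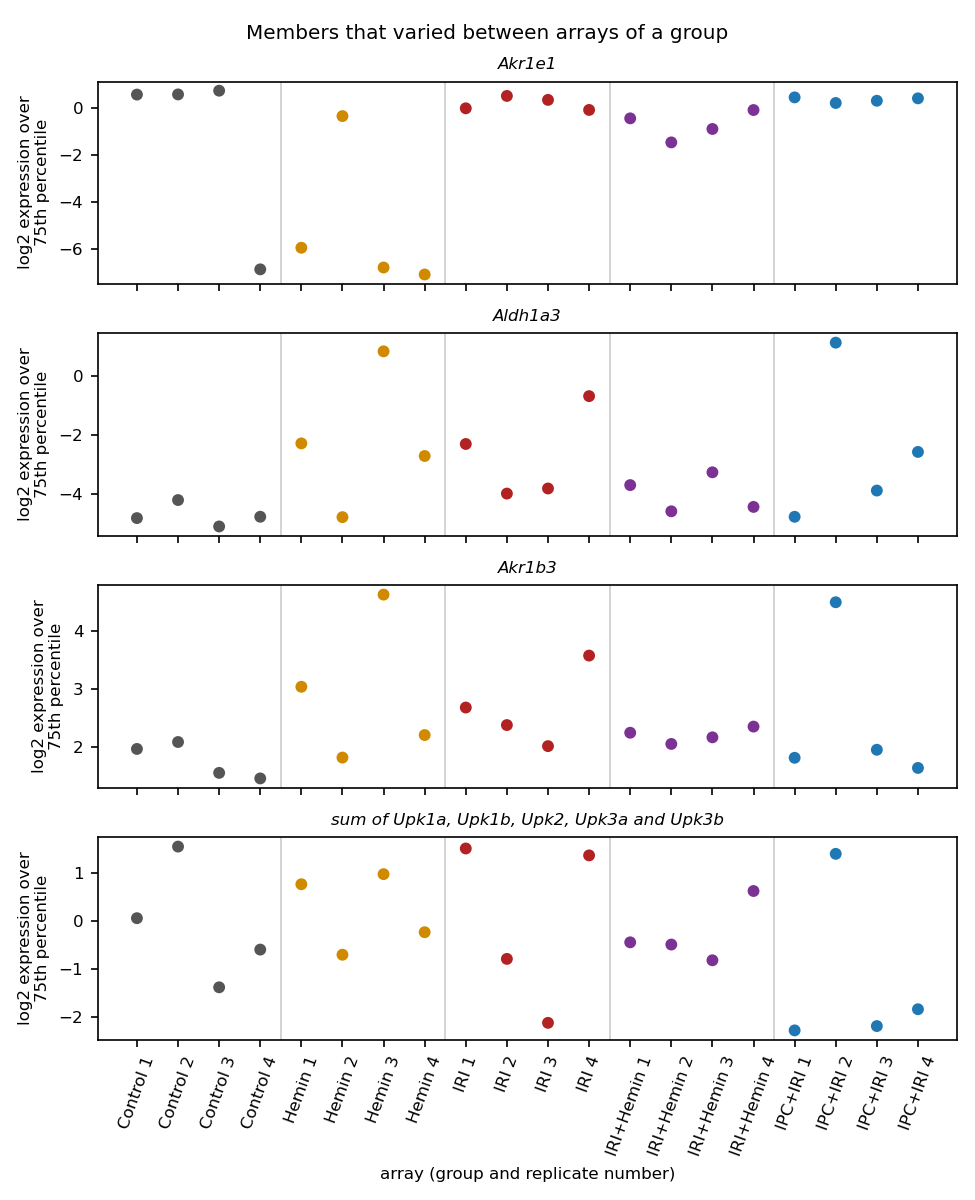
Log2 expression over the array's 75th percentile (vertical axes) of Akr1e1, Aldh1a3 and Akr1b3, and the log2 of the summed level of 5 uroplakin genes, on each of the 20 arrays (horizontal axis, by group and replicate number). Aldh1a3 and Akr1b3 share their highest arrays, IPC+IRI 2, Hemin 3 and IRI 4, and Akr1e1 is near background on Control 4, Hemin 1, Hemin 3 and Hemin 4.

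The enzymes of small and lipid-derived aldehydes had no call among the 5 tested in IRI vs Control with limma, where 50.6% of all genes were called, and 0 had an unadjusted p below 0.05. Hemin vs Control called 2 of the 5 (40% against 35.9% of all genes), as did each protected group against IRI (43.7% of all genes for preconditioning and 44% for hemin). IPC+IRI vs Control called 4 (80% against 55.8%) and IRI+Hemin vs Hemin called 3 (60% against 44.2%). Aldh1b1, a mitochondrial enzyme close to Aldh2, read -2.38, -2.00, -2.38 and -2.36 in Control, -2.62, -2.67, -2.62 and -2.24 in IRI, and -0.94, -2.11, -1.50 and -1.27 in IPC+IRI. It read -2.54, -2.30, -2.95 and -1.82 in IRI+Hemin and -1.90, -1.61, -1.98 and -1.44 in Hemin. IPC+IRI lay above IRI on every array, by 1.09 ± 0.24 (adjusted p = 0.00138), and above Control by 0.82 ± 0.24 with overlap (adjusted p = 0.00646). Both calls were lost with normexp, where the differences were 0.15 and 0.22. Aldh1b1 was lower in IRI+Hemin than in Hemin by -0.67 ± 0.24 (adjusted p = 0.028), a call lost with normexp and without IRI+Hemin 1 or 3 or Hemin 2 or 4. Aldh2, which oxidises acetaldehyde in mitochondria, was higher in IRI+Hemin (4.12 ± 0.20) than in IRI (3.55 ± 0.26), by 0.57 ± 0.14 (adjusted p = 0.00385), and higher than Control in Hemin (0.40 ± 0.14, adjusted p = 0.0347) and in IPC+IRI (0.38 ± 0.14, adjusted p = 0.0312). Each of the last 2 calls was lost in 9 of 20 alternatives, and in the deposited log2 matrix the difference between IRI+Hemin and IRI was -0.12. Aldh3a2, the fatty aldehyde dehydrogenase of the endoplasmic reticulum, stood at 3.60 ± 0.09 in Control and 3.68 ± 0.23 in IRI, against 3.28 ± 0.19 in Hemin, 3.29 ± 0.15 in IPC+IRI and 2.85 ± 0.09 in IRI+Hemin. It was called lower in 5 of the 6 comparisons, most in IRI+Hemin vs IRI (-0.82 ± 0.12, adjusted p = 6.71e-05), a call lost without normalization between arrays alone. The calls in IPC+IRI vs IRI, IPC+IRI vs Control and Hemin vs Control were lost in 6, 7 and 13 of 20 alternatives, and that in IRI+Hemin vs Hemin without normalization between arrays and with the uroplakin-high arrays left out. The 2 smallest differences, against Control in IPC+IRI and in Hemin, turned to 0.12 and 0.24 without normalization between arrays. Aldh3b1 was not called in any comparison, and Aldh3b2 was called lower in IPC+IRI vs Control and in IRI+Hemin vs Hemin by no more than 0.33, calls that were lost in 11 and in 9 of 20 alternatives.

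Of the folate enzymes, Aldh1l1, the cytosolic 10-formyltetrahydrofolate dehydrogenase, rose from 5.37 ± 0.06 in Control to 5.81 ± 0.09 in IRI (0.44 ± 0.11, adjusted p = 0.00219) and from 5.22 ± 0.12 in Hemin to 5.59 ± 0.12 in IRI+Hemin (0.37 ± 0.11, adjusted p = 0.0086). These 2 comparisons have no array in common. The first call was lost with normexp and in the deposited log2 matrix, and the second without normalization between arrays and with the uroplakin-high arrays left out. In IPC+IRI Aldh1l1 stood at 5.58 ± 0.21, which overlapped with Control and was not called against it (0.21). Its mitochondrial counterpart Aldh1l2 was not called. In the list of 16 one-carbon genes 6 were called in IRI vs Control (37.5% against 50.6% of all genes), 3 in each direction, with the mitochondrial enzymes Mthfd2 and Mthfd1l at 2.87 ± 0.29 and 2.09 ± 0.41 and the folate carrier Slc25a32 at 1.16 ± 0.10.

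The amino acid enzymes include both ends of proline metabolism. Aldh18a1, which starts proline synthesis from glutamate, read -3.53, -3.70, -3.36 and -2.98 in Control and -1.99, -2.88, -2.38 and -1.74 in IRI. It read -3.28, -2.79, -3.02 and -4.38 in IRI+Hemin, -4.18, -3.42, -3.14 and -3.33 in IPC+IRI, and -3.90, -3.86, -3.75 and -4.07 in Hemin. IRI lay above Control without overlap by 1.14 ± 0.31 (adjusted p = 0.00482), and both protected groups were lower than IRI, IPC+IRI by -1.27 ± 0.31 without overlap (adjusted p = 0.00307) and IRI+Hemin by -1.12 ± 0.31 with overlap (adjusted p = 0.007). The first call was lost with normexp, at 0.48, and with the uroplakin-high arrays left out, and the other 2 without normalization between arrays. That of IRI+Hemin was also lost in the deposited log2 matrix and with the uroplakin-high arrays left out.

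Aldh4a1, the mitochondrial enzyme of proline breakdown, was not called with injury alone, at -0.13 ± 0.19 in IRI vs Control (adjusted p = 0.595). It read 4.62, 3.70, 4.63 and 4.50 in Control, 4.09, 4.47, 4.43 and 3.92 in IRI, and 2.94, 3.21, 2.90 and 3.56 in IRI+Hemin. It read 3.17, 3.42, 3.49 and 3.39 in IPC+IRI and 3.55, 3.76, 3.59 and 3.85 in Hemin. Both protected groups lay below IRI on every array, by -1.07 ± 0.19 in IRI+Hemin (adjusted p = 0.00033) and -0.86 ± 0.19 in IPC+IRI (adjusted p = 0.00191), and IPC+IRI lay below Control by -0.99 ± 0.19 (adjusted p = 0.000351). The falls in Hemin vs Control (-0.67 ± 0.19, adjusted p = 0.013) and IRI+Hemin vs Hemin (-0.54 ± 0.19, adjusted p = 0.0324) were smaller and with overlap. Both calls of IPC+IRI were lost without normalization between arrays, that of IRI+Hemin vs IRI in the deposited log2 matrix, and that of IRI+Hemin vs Hemin without normalization between arrays, in the deposited log2 matrix and without IRI+Hemin 1, 2 or 3 or Hemin 2 or 4. That of Hemin vs Control was lost with normexp, without normalization between arrays and in the deposited log2 matrix. In the list of 11 proline genes, 5 of 10 tested were called in IRI vs Control and all 5 were lower (50% against 50.6% of all genes), among them ornithine aminotransferase Oat at -0.57 ± 0.12, Prodh2 at -0.51 ± 0.19 and Pycrl, which closes proline synthesis, at -0.46 ± 0.15.

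Aldh9a1, of carnitine synthesis, was lower in IPC+IRI (3.36 ± 0.12) than in IRI (4.06 ± 0.16) by -0.70 ± 0.15 (adjusted p = 0.00152) and than in Control (4.03 ± 0.39) by -0.67 ± 0.15 (adjusted p = 0.00125). Both calls were lost without normalization between arrays, at -0.38 and -0.24, and in the deposited log2 matrix, at -0.15 and -0.16. It was also lower in Hemin than in Control, at -0.46 ± 0.15 (adjusted p = 0.0276), a difference that was 0.11 without normalization between arrays and 0.23 in the deposited log2 matrix. This call was lost in 9 of 20 alternatives, also with normexp, with only the arrays compared and without Control 1, 3 or 4 or Hemin 1 or 4. Aldh7a1, of lysine breakdown, was higher in Hemin than in Control by 0.60 ± 0.17 (adjusted p = 0.0134), which rested on the brighter of its 2 probes and was -0.03 with the mean of log2 values over probes. Other settings that ended this call were the 75th percentile over probes well above background on all arrays and the deposited log2 matrix. It was lower in IRI+Hemin than in Hemin by -0.44 ± 0.17 (adjusted p = 0.047), a call lost in 11 of 20 alternatives. Aldh5a1 of GABA breakdown, Aldh6a1 of valine breakdown and Aldh16a1 were not called in any comparison, and the group means of Aldh6a1 kept within 5.84 to 6.06. Of the 9 lysine and carnitine genes listed, 2 were called in IRI vs Control, both lower (22.2%), and of the 19 genes of branched chain breakdown 3, all lower (15.8%), against 50.6% of all genes called and 33.7% called lower. In the list around GABA 3 genes were tested, the enzyme Abat, the autophagy gene Gabarapl1, which is not of GABA metabolism, and the transporter Slc6a13. They had differences of -0.11, -0.06 and -0.17 in IRI vs Control without a call. Of 12 other enzymes of lipid aldehydes and carbonyls 3 were called (25% against 50.6% of all genes), Xdh at 1.12, Cbr3 at 1.04 and Cbr1 at -1.01.

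The aldehyde reductase Akr1a4 (now Akr1a1) was lower than in Control in IPC+IRI (-0.48 ± 0.11, adjusted p = 0.000989) and in Hemin (-0.38 ± 0.11, adjusted p = 0.0106), and lower in IPC+IRI than in IRI (-0.42 ± 0.11, adjusted p = 0.00414). With normexp and without normalization between arrays all of these calls were lost, and without normalization that of Hemin vs Control stood at 0.19. That of Hemin vs Control was also lost with the uroplakin-high arrays left out. Akr7a5, the aflatoxin aldehyde reductase, was not called. Akr1e1, a reductase of anhydrofructose, split within groups. It read 0.59, 0.60, 0.75 and -6.88 in Control, 0.00, 0.53, 0.36 and -0.07 in IRI, and -0.43, -1.45, -0.88 and -0.07 in IRI+Hemin. It read 0.47, 0.23, 0.33 and 0.43 in IPC+IRI and -5.95, -0.33, -6.80 and -7.09 in Hemin. On 4 arrays, Control 4 and Hemin 1, 3 and 4, the gene was thus not well above background, and these lay more than 4 log2 units below all other arrays. The fit called Hemin vs Control (-3.81 ± 1.44, adjusted p = 0.0475) and IRI+Hemin vs Hemin (4.34 ± 1.44, adjusted p = 0.0216), but the groups overlapped in both and each call was lost without Hemin 1, Hemin 3 or Hemin 4. The call in Hemin vs Control was also lost without a filter on dim genes and with only the arrays compared, and that in IRI+Hemin vs Hemin with normexp and with the uroplakin-high arrays left out. With 3 of 4 Hemin arrays at background, these fitted differences and the -5.69 that Hemin vs Control gave without Control 4 have no exact size. Of its 2 probes the one for transcript NM_018859 (mm9 chr13:4592290-4592349) carries the signal.

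Among the Akr1b genes, Akr1b8, an aldose reductase-related enzyme induced by fibroblast growth factor, rose in every injured group. It read 0.85, 1.54, 0.76 and 0.62 in Control, 2.48, 1.84, 1.79 and 2.30 in IRI, and 2.65, 3.27, 2.87 and 2.34 in IRI+Hemin. It read 2.11, 2.92, 2.94 and 2.75 in IPC+IRI and 1.64, 1.47, 2.04 and 1.80 in Hemin. All arrays of injured kidneys were above all Control arrays. The rise was 1.16 ± 0.24 in IRI vs Control (adjusted p = 0.000719), 1.74 ± 0.24 in IPC+IRI vs Control (adjusted p = 1.52e-05) and 1.05 ± 0.24 in IRI+Hemin vs Hemin (adjusted p = 0.00225), and none of these 3 calls was lost in any alternative. Hemin alone gave 0.79 ± 0.24 with overlap (adjusted p = 0.0169), and IRI+Hemin exceeded IRI by 0.68 ± 0.24 (adjusted p = 0.0301). The call in Hemin vs Control was lost without Control 3, Control 4 or Hemin 3, and that in IRI+Hemin vs IRI without IRI 2, IRI 3, IRI+Hemin 2 or IRI+Hemin 3 and with quantile normalization. Among genes that the oxidative stress factor NRF2 is known to activate, 7 of 15 tested were called in IRI vs Control, all higher (46.7% against 50.6% of all genes), led by heme oxygenase Hmox1 (4.67 ± 0.47), sulfiredoxin Srxn1 (3.27 ± 0.17) and Osgin1 (1.97 ± 0.28). In IPC+IRI vs IRI 11 of 15 were called, 10 of them lower (73.3% against 43.7% of all genes), and in Hemin vs Control 5 of 15 (33.3% against 35.9%), of which 4 were lower.

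Akr1b7, known from the vas deferens and the adrenal gland, was called in 2 comparisons, both with IRI+Hemin. It read -0.93, -0.58, -0.93 and -0.57 in Control, -0.84, -0.41, -0.10 and -0.13 in IRI, and 1.71, 0.84, 1.82 and -0.02 in IRI+Hemin. It read -0.54, -0.34, -0.28 and 0.34 in IPC+IRI and -0.65, -0.15, -0.41 and -0.11 in Hemin. IRI+Hemin was above IRI by 1.46 ± 0.31 (adjusted p = 0.00124) and above Hemin by 1.42 ± 0.31 (adjusted p = 0.00152), without overlap in either and without a call lost in any alternative. The interaction itself was 1.04 ± 0.44 and was not called (adjusted p = 0.17), so a larger injury effect under hemin is not shown. Of 7 adrenal markers measured, the defining enzymes Cyp11a1 and Cyp11b2 were not well above background on any array. The summed level of the 7 was 1.87 to 2.17 in Control and 1.74 to 1.80 in Hemin, and 0.725 to 1.00, 0.996 to 1.20 and 0.845 to 2.27 in IRI, IPC+IRI and IRI+Hemin. Of the 4 liver markers 1 was called in IRI+Hemin vs IRI, the fibrinogen chain Fgb, which was higher by 1.88, while Alb and Apoa2 had differences of -0.28 and -0.51 and the median of the 4 was -0.02. In IRI+Hemin vs Hemin Fgb (1.63) and Alb (0.89) were called higher and Apoa2 (-0.90) lower. The part of liver or adrenal tissue in the result was not tested.

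**Figure D4:**
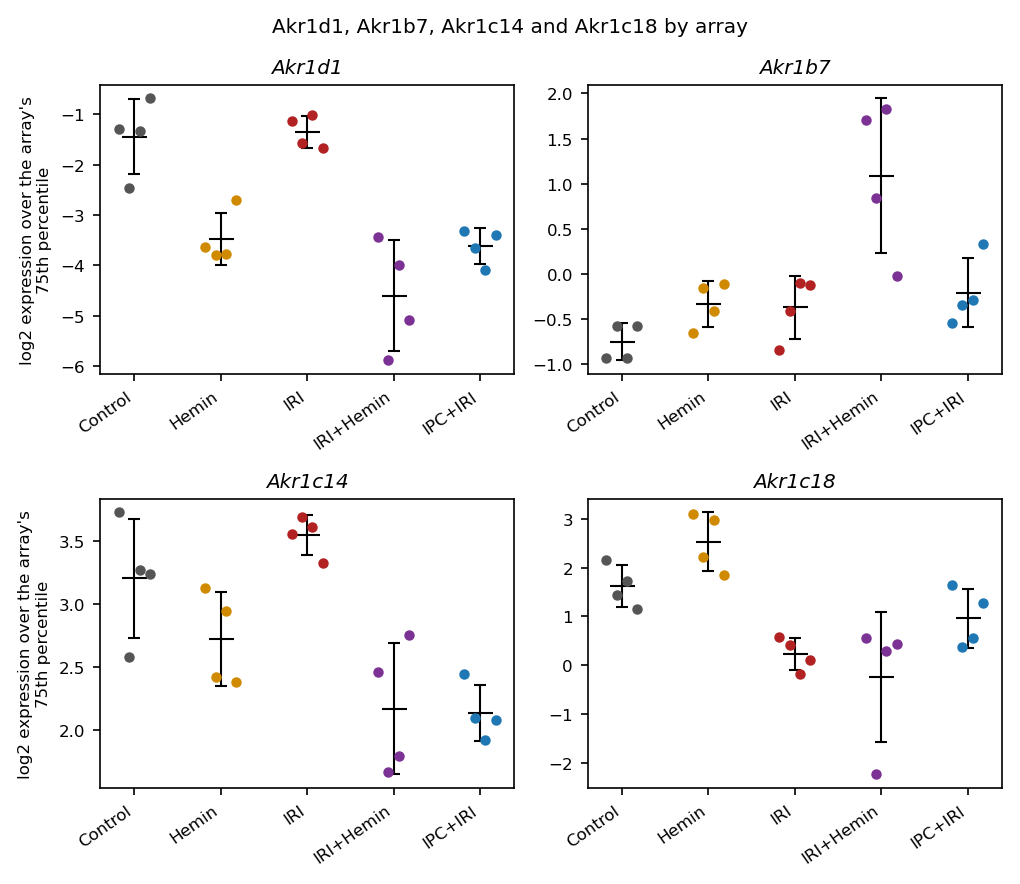
Log2 expression over the array's 75th percentile (vertical axes) of Akr1d1, Akr1b7, Akr1c14 and Akr1c18 in the 5 groups (horizontal axes), with a point for each of 4 arrays and the mean and SD as bars. Akr1d1 is lower in the other 3 groups than in Control and IRI, Akr1b7 is highest in IRI+Hemin, Akr1c14 is lowest in IRI+Hemin and IPC+IRI, and 1 IRI+Hemin array of Akr1c18 stands apart at -2.23.

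Among the steroid reductases, Akr1d1, the steroid 5-beta-reductase of bile acid and steroid hormone metabolism, read -1.29, -2.47, -1.33 and -0.68 in Control and -1.13, -1.58, -1.02 and -1.67 in IRI. It read -3.43, -5.88, -3.99 and -5.08 in IRI+Hemin, -3.32, -3.65, -4.09 and -3.39 in IPC+IRI, and -3.64, -3.79, -3.78 and -2.71 in Hemin. Injury alone was not called (0.09 ± 0.44, adjusted p = 0.876), and all 12 arrays of the hemin and preconditioning groups lay below all 8 arrays of Control and IRI. The differences were -3.25 ± 0.44 in IRI+Hemin vs IRI (adjusted p = 3.06e-05), -2.26 ± 0.44 in IPC+IRI vs IRI (adjusted p = 0.000605), -2.17 ± 0.44 in IPC+IRI vs Control (adjusted p = 0.000482) and -2.03 ± 0.44 in Hemin vs Control (adjusted p = 0.00206). No alternative ended these 4 calls, although they shrank to between -1.45 and -1.12 at the least. A further fall in IRI+Hemin vs Hemin (-1.12 ± 0.44, adjusted p = 0.0475) overlapped and was lost in 13 of 19 alternatives. These 3 groups were also scanned on other days than Control and IRI, so scan day cannot be told apart from them here. In IRI+Hemin 2 of 4 arrays were well above background, so differences from that group are partly against background. Akr1d1 is best known from liver. Of 4 liver markers, albumin Alb averaged -0.40 in IRI and -1.07 in Control, while IPC+IRI averaged -1.31, Hemin -1.57 and IRI+Hemin -0.68. It was called lower in IPC+IRI vs IRI (-0.91, adjusted p = 0.00286) and was not called in IRI+Hemin vs IRI (-0.28) or in Hemin vs Control (-0.50). In IPC+IRI vs IRI Fgb was called higher, by 1.17, and the median of the 4 was 0.04. The summed level of the 4, most of it Serpina1d, was 30.8 to 79.1 in Control and 57.3 to 87.6 in Hemin, and 38.5 to 58.5, 33.0 to 60.7 and 51.6 to 87.1 in IRI, IPC+IRI and IRI+Hemin. The organic anion transporter Slc22a8, a marker of the proximal tubule, averaged 2.93 in IRI and 3.01 in Control, while Hemin averaged 1.43, IPC+IRI 1.30 and IRI+Hemin 1.58. It was singled out after its values were seen. In Hemin vs Control 2 of the 12 proximal tubule markers were called (16.7% against 35.9% of all genes), both lower, with a median of 0.03. The medians were -0.27 in IRI+Hemin vs IRI and 0.03 in IPC+IRI vs IRI. In each of these 3 were called lower and 2 higher (41.7%, against 44% and 43.7% of all genes). The part of either cell type in the Akr1d1 values was not tested.

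The Akr1c genes are a cluster on chromosome 13 whose members reduce steroids at different positions. Their array probes are 60 bases long. Those that span an intron are shown for 3 members, because they let the paralogs be compared, on build mm9 and on the strand of the gene, as deposited with the arrays. In the first pair, which reads the same stretch of the family, the capitals mark bases that differ between Akr1c12 (chr13:4267675-4269464, - strand) and Akr1c21 (chr13:4583075-4585609, + strand). The other probe is that of Akr1c18 (chr13:4134506-4135881, - strand).

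Akr1c12: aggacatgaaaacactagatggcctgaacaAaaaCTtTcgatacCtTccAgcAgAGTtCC

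Akr1c21: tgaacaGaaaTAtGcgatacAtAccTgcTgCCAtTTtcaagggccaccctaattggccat

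Akr1c18: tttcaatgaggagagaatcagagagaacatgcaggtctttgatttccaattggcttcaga

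The probes of Akr1c12 and Akr1c21 overlap by 36 bases when aligned, of which 23 are identical and 13 differ. The 3 probes span 1790, 2535 and 1376 bases of the genome.

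Akr1c14, the 3-alpha-hydroxysteroid dehydrogenase, was lower in both protected groups than in IRI. It read 3.73, 2.58, 3.27 and 3.24 in Control, 3.55, 3.69, 3.61 and 3.32 in IRI, and 2.46, 1.66, 1.80 and 2.75 in IRI+Hemin. It read 2.45, 2.10, 1.92 and 2.08 in IPC+IRI and 3.12, 2.42, 2.95 and 2.38 in Hemin. Neither protected group overlapped with IRI. The difference was -1.41 ± 0.25 in IPC+IRI vs IRI (adjusted p = 0.000317), -1.38 ± 0.25 in IRI+Hemin vs IRI (adjusted p = 0.000375) and -1.07 ± 0.25 in IPC+IRI vs Control (adjusted p = 0.00171). The last was lost without normalization between arrays, at -0.63, and the other 2 in no alternative.

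Akr1c18, which inactivates progesterone as the 20-alpha-hydroxysteroid dehydrogenase, fell in IRI vs Control and in IRI+Hemin vs Hemin. It read 2.16, 1.45, 1.72 and 1.16 in Control and 0.58, 0.41, -0.18 and 0.12 in IRI, with no overlap. It read 0.55, -2.23, 0.30 and 0.43 in IRI+Hemin, 1.65, 0.37, 0.55 and 1.27 in IPC+IRI, and 3.10, 2.22, 2.97 and 1.85 in Hemin. The fall was -1.39 ± 0.49 in IRI vs Control (adjusted p = 0.0249) and -2.77 ± 0.49 in IRI+Hemin vs Hemin (adjusted p = 0.000245), 2 comparisons without a shared array. The first call was lost without Control 1, IRI 3 or IRI 4, without normalization between arrays and with the uroplakin-high arrays left out, while the second was kept in all 20 alternatives, also without IRI+Hemin 2, the array at -2.23, where the difference was -2.11. In IPC+IRI vs Control the Akr1c18 difference of -0.66 ± 0.49 overlapped and was not called (adjusted p = 0.262, limma). All 4 adrenal markers tested were called in IRI vs Control (50.6% of all genes), 3 lower and 1 higher. In IRI+Hemin vs Hemin 4 of 5 were called (80% against 44.2%), 3 lower and 1 higher, with a median of -0.74. The part of adrenal tissue was not tested.

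Akr1c19 and Akr1c12, members of the cluster with less settled substrates, were both higher than Control in IRI, IPC+IRI and Hemin. Akr1c19 read 0.78, 1.69, 1.05 and 0.95 in Control, 1.47, 1.87, 1.77 and 1.78 in IRI, and 2.58, 2.36, 2.28 and 3.07 in IRI+Hemin. It read 2.29, 1.81, 2.14 and 2.42 in IPC+IRI and 1.96, 2.07, 1.87 and 2.43 in Hemin. Hemin and IPC+IRI lay above Control on every array, by 0.97 ± 0.20 (adjusted p = 0.00173) and 1.05 ± 0.20 (adjusted p = 0.000326), and IRI+Hemin lay above IRI by 0.85 ± 0.20 (adjusted p = 0.00284), with no call lost in any alternative. The rise of 0.61 ± 0.20 in IRI vs Control overlapped (adjusted p = 0.0193) and was lost with normexp, in the deposited log2 matrix and without Control 1 or Control 4. Both of its probes ran the same way, with means of 0.92 and 1.29 in Control and 2.25 and 2.84 in IRI+Hemin. Akr1c12 rose over Control by 0.61 ± 0.19 in IRI (adjusted p = 0.015), by 0.97 ± 0.19 in IPC+IRI (adjusted p = 0.00045) and by 0.55 ± 0.19 in Hemin (adjusted p = 0.0347), and the first of these was lost in 3 and the last in 9 of 20 alternatives.

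Akr1c20 and Akr1c6 (17-beta-hydroxysteroid dehydrogenase type 5) fell in IRI vs Control and were higher in IPC+IRI than in IRI. Akr1c20 read -3.64, -3.93, -4.77 and -4.41 in Control and -5.45, -5.22, -5.28 and -4.98 in IRI, where 1 array was well above background. It read -4.28, -3.70, -4.70 and -4.32 in IRI+Hemin, -4.35, -4.48, -3.63 and -3.39 in IPC+IRI, and -3.93, -3.92, -4.03 and -3.22 in Hemin. IRI was below every other group without overlap, by -1.04 ± 0.28 against Control (adjusted p = 0.00484), while IPC+IRI was above IRI by 1.27 ± 0.28 (adjusted p = 0.0016) and IRI+Hemin by 0.98 ± 0.28 (adjusted p = 0.00896). These differences are near background and have no exact size, and they turned round with normexp, to 0.10, -0.29 and -0.40. The first call was also lost with quantile normalization and with the brightest probe, and the other 2 with the mean of log2 values over probes. Akr1c6 had differences of -0.72 ± 0.25 in IRI vs Control (adjusted p = 0.0231) and 0.89 ± 0.25 in IPC+IRI vs IRI (adjusted p = 0.00802), which also turned round with normexp, to 0.06 and -0.22, and the first was lost in 8 of 20 alternatives. Akr1c6 was also lower in IRI+Hemin than in Hemin (-0.70 ± 0.25, adjusted p = 0.0306), a call lost in 9 of 20. Akr1c21, the 3(17)-alpha-hydroxysteroid dehydrogenase of mouse kidney, was called in 1 comparison, IRI+Hemin vs Hemin, where it fell from 7.66 ± 0.10 to 6.93 ± 0.32 (-0.73 ± 0.15, adjusted p = 0.000989), a call lost with normexp. Of 16 other genes of steroid enzymes, not all of them reductases, 9 were called in IRI vs Control (56.2% against 50.6% of all genes). Of these, 3 were higher and 6 lower (37.5% against 33.7%). Among them were the 5-alpha-reductase Srd5a2 at 1.89 ± 0.20 and the 3-beta-hydroxysteroid dehydrogenases Hsd3b1 at -1.45 ± 0.28 and Hsd3b6 at -1.35 ± 0.27.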

How the data were processed

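Kidney RNA of the 5 groups was measured on 20 arrays, grouped by the sample labels. The authors deposited the scanner's intensity values, made with Agilent Feature Extraction 9.5.3.1, with background already subtracted within an array. A matrix of log2 values that the authors deposited served as an alternative. Outlier spots of the 43379 were removed, spots averaged per probe, arrays scaled to their 75th percentile, and probes of a gene averaged before the log2. Testing required at most 1 missing value and at least 3 of 4 arrays of either group well above background.

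Tables were read with data.table, version 1.17.8, and R 4.3.3. The fit used limma 3.58.1 with 5 group means over all 20 arrays, which leaves 15 residual degrees of freedom. Benjamini-Hochberg adjustment ran over all genes tested in a comparison. The study's methods name SAM, which was not run here. Simulated data were used to check the fit, which for IRI vs Control over 19124 genes recovered 67.6% of 2-fold and 93.9% of 4-fold changes, with 10 false calls. Only 102 genes were changed 2-fold and 98 genes 4-fold there, with normal noise and every gene taken as well above background. In the data 50.6% of genes were called, so these shares are not the recovery in the data. Values on every array are given for members called with at least 2-fold in 1 or more comparisons. In each pathway list up to 3 called genes with the largest difference are named. The members, lists and tests were chosen with earlier results of these data known.

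Alternatives were normexp (offset 50), no scaling or quantile normalization, a 75th percentile over bright probes, the brightest probe, probes averaged as log2, the deposited matrix, no filter or a strict one, a 2-fold limit, only the arrays compared, a replicate block and each array left out. After seeing the data, the uroplakin list was added, and a fit without the arrays whose summed uroplakin level was above 1. The markers Cyp11b1 and Ly6g were not matched by name.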

Additional observations from a re-analysis of the deposited data

Results flagged for a closer look

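Of 175 groups of 4 arrays in which a member was well above background on at least 3, 12 had 1 array far from the other 3 by Dixon's 95% criterion, and chance flags about 5% of groups. The widest gaps were those of Akr1e1 on Control 4, at -6.88 with the next array at 0.59, Akr1b3 on IPC+IRI 2, at 4.49 with the next at 1.95, and Akr1c18 on IRI+Hemin 2, at -2.23 with the next at 0.30. The fitted Akr1e1 difference of Hemin from Control was -3.81 with Control 4 and -5.69 without it, neither of exact size, since 3 of 4 Hemin arrays were not well above background.

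Smaller gaps were found for Adh6a on IRI 1 (-1.95, next -1.05), Akr1c20 on Hemin 4 (-3.22, next -3.92), Akr1d1 on Hemin 4 (-2.71, next -3.64), Aldh16a1 on IRI+Hemin 4 (3.39, next 3.07), Aldh3a2 on IPC+IRI 3 (3.06, next 3.35), Aldh4a1 on Control 2 (3.70, next 4.50) and Aldh6a1 on IRI 4 (5.66, next 5.98). Aldh1b1 was high on Control 2 (-2.00, next -2.36) and on IRI 4 (-2.24, next -2.62).

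Adh6a was the member called in the interaction of hemin and injury, at a fitted -2.86 on the log2 scale (adjusted p = 0.000481, limma), with all 4 IRI+Hemin arrays below all 4 IRI arrays. Of the uninjured arrays 0 of 4 in Control and 1 of 4 in Hemin were well above background, so the fitted value rests on background signal and is no measured size of a difference in the injury effect. The call was kept in the 26 alternatives in which the gene was tested.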

How the results depend on the processing

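There were 83 called differences of single members. With normexp 51 of them kept their call, without normalization between arrays 54, with quantile normalization 73, with the 75th percentile over probes well above background on all arrays 77, with the brightest probe 78, with the mean of log2 values 75, without a filter 78 and with only the arrays compared 75. In the deposited log2 matrix 47 of 68 testable ones kept it, with the strict filter 72 of 72, and with the uroplakin-high arrays left out, chosen after seeing the data, 64 of 81, where fewer arrays were compared. The causes of the other changes were not tested.

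The count of called members fell to 5 in IRI vs Control and to 10 in IPC+IRI vs Control with normexp. Without normalization between arrays it was 23 in Hemin vs Control and 11 in IRI+Hemin vs Hemin. This setting moved the median difference of all genes from 0.06 to 0.62 in Hemin vs Control, from 0.09 to 0.41 in IPC+IRI vs IRI, from 0.08 to 0.45 in IRI+Hemin vs IRI, from -0.09 to 0.35 in IPC+IRI vs Control and from -0.17 to -0.05 in IRI vs Control. Normexp moved it to 0.02 in IRI vs Control, -0.17 in IPC+IRI vs IRI, -0.20 in IRI+Hemin vs IRI, -0.12 in Hemin vs Control and -0.03 in IRI+Hemin vs Hemin, and the 75th percentile over bright probes to -0.20 in IPC+IRI vs Control and -0.06 in Hemin vs Control. The split of higher and lower members was 4 and 1 in IRI vs Control and 5 and 6 in IPC+IRI vs IRI with normexp, and 4 and 10 in IRI+Hemin vs IRI with quantile normalization. With at least 2-fold the counts were 7 in IRI vs Control, 6 in IPC+IRI vs IRI, 6 in IPC+IRI vs Control, 6 in IRI+Hemin vs IRI, 3 in Hemin vs Control and 8 in IRI+Hemin vs Hemin. The interaction gave 0 of 28 in the deposited log2 matrix and 0 of 32 with the strict filter, neither of which tested Adh6a. There were 3 and 6 members at an unadjusted p below 0.05 in limma, without a share of all genes at that threshold to set beside them.

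Leaving out 1 array gave 8 to 13 called members in IRI vs Control, 11 to 15 in IPC+IRI vs IRI, 14 to 17 in IPC+IRI vs Control, 10 to 14 in IRI+Hemin vs IRI, 5 to 16 in Hemin vs Control, 10 to 17 in IRI+Hemin vs Hemin and 1 to 3 in the interaction. In Hemin vs Control the count was 7, 5 and 6 without Control 1, 3 and 4 and 7, 8 and 6 without Hemin 1, 3 and 4. In IRI+Hemin vs Hemin it was 10 without IRI+Hemin 1, 10 without Hemin 2 and 11 without Hemin 4.

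Directions that turned were those of Akr1c20 and Akr1c6 with normexp (0.10 and 0.057 in IRI vs Control, -0.29 and -0.22 in IPC+IRI vs IRI, and -0.40 for Akr1c20 in IRI+Hemin vs IRI). Without normalization between arrays Aldh3a2 (0.12) and Aldh3b2 (0.13) turned in IPC+IRI vs Control, and Akr1a4 (0.19), Aldh3a2 (0.24) and Aldh9a1 (0.11) in Hemin vs Control. In the deposited log2 matrix Adh1 (0.21) and Aldh2 (-0.12) turned in IRI+Hemin vs IRI, and Aldh9a1 (0.23) in Hemin vs Control. With the mean of log2 values Aldh7a1 turned in Hemin vs Control (-0.033).

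With the replicate block, 81 of the 83 calls were kept, and the counts of called members were 11, 13, 16, 12, 12, 17 and 1 in the order of the counts with 1 array left out. The calls lost were Aldh8a1 in IRI vs Control and Aldh3a2 in Hemin vs Control. Deviations of arrays with the same number correlated between -0.33 and 0.21 (median -0.02, 40 pairs), so the numbers do not pair the samples. A fit with the slide as a random block was not possible, since no group spans more than 1 slide. Genes with a signal near background, such as Akr1c20 and Adh6a in uninjured kidneys, are limited by that background.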

Other observations

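Some probes under a member's name did not follow the gene. Of the 3 probes of Adh1, that for AK082149 lies on the opposite strand and had group means between -7.23 and -6.11, while the 2 probes for NM_007409 had means between 4.69 and 6.30. The 2 probes of Aldh7a1 went apart in Hemin vs Control, the brighter from 0.74 to 1.38 and the dimmer from -3.37 to -4.08.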
